A study of Mus musculus with 21 samples.

Results

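The comparison described here set the column named CD34a6 against the column named bulk in a table of gene expression from mouse skin keratinocytes. Its members were the loci of that pair whose test status was given as OK in the authors' deposited table, each locus counted once. There were 14441 such loci, from 14456 lines with that status among 44010 lines of the pair and 132030 lines of the 3-population table. The other 29554 lines of the pair were marked as not tested and took part in no count, so a gene too low for the authors' test in both columns is not described.

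The series held 21 polyadenylated RNA libraries in 7 groups of 3, all from mouse epidermis. The table of 3 populations drew on hair follicle stem cells purified by fluorescence-activated sorting, total epidermal cells, and cultured hair follicle stem cells, with 3 libraries in each, all labelled wild type and with no treatment named. The column bulk was read as the total epidermal cells. Whether CD34a6 or HFSC is the name of the freshly sorted population is not settled by the labels. Both column names are therefore kept as the table has them, and neither is taken to say how its cells were obtained. Age, sex, strain and the number of animals behind a library are not given in the sources used here. Where nothing says that libraries came from separate animals, the deposited p-values may measure only technical spread.

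Each population had 1 FPKM value per locus, estimated by the authors over its libraries. FPKM scales the count of fragments by transcript length and by the number of mapped fragments, so levels can be compared between genes of a column, while a comparison between columns rests on how they were scaled. No value per library and no read depth was at hand, so standard deviations, counting intervals and detection limits cannot be given, and the authors' test is the only measure of error. Loci with an adjusted p under 0.05 in the authors' deposited table are called, as higher or as lower in CD34a6. All values below are FPKM from that table unless stated, with CD34a6 first and bulk second where 2 values are joined by "against".

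Hair follicle stem cells rest in the bulge, a niche in the outer root sheath of the follicle, and leave rest at the start of each hair cycle. Antibodies against CD34 and alpha-6 integrin are widely used to sort them from mouse skin. Total epidermis is instead dominated by interfollicular keratinocytes, whose basal layer divides and whose suprabasal layers stop dividing, build a lipid and protein barrier and cornify, and it also holds resident immune cells and pigment cells.

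Marker genes were read first, as a check of the name of the column. Cd34 stood at 327 FPKM in CD34a6, 10.6 in bulk and 8.70 in HFSC. Itga6, which encodes alpha-6 integrin, stood at 155 FPKM in CD34a6, 72.4 in bulk and 306 in HFSC. Of the other markers, the transcription factor gene Lhx2 was at 270.3 FPKM in CD34a6, 7.91 in bulk and 2.06 in HFSC, Sox9 at 180.1 FPKM in CD34a6, 20.4 in bulk and 55.2 in HFSC, and Lgr5, which encodes a receptor of cycling stem cells, at 70.5 FPKM in CD34a6, 1.88 in bulk and 0.299 in HFSC. All 5 were called higher in CD34a6 than in bulk, and only Itga6 was highest in HFSC. The deposited locus of Cd34 runs from 194938819 to 195092249 on chromosome 1 of GRCm38 and overlaps another tested locus. The adjusted p was 2.12e-04 for 4 of them, the smallest value in the comparison, and 0.00307 for Itga6.

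Markers of other cells moved with the comparison. The 4 immune markers were all lower, with a summed level of 4.23 in CD34a6 and 187 in bulk, and the 2 globin genes were lower with sums of 4.07 and 161. Suprabasal markers Krt1, Krt10 and Lor summed to 1104 against 33918. Fibroblast markers summed to 25.0 against 3.53, of which Col1a1 made 22.4 against 1.21, while Col3a1 and Lum were listed at 0 in CD34a6 and Pdgfra at 0.0410 against 0.0337. Melanocyte markers summed to 8.34 against 6.65 but differed in direction. Dct was higher at 7.29 against 2.63, and Tyrp1 was lower at 0.348 against 1.18. Pmel (0.643 against 2.57) was not called and Mlana (0.0588 against 0.265) was not tested. Schwann cell markers summed to 2.76 against 0.414. Endothelial, Merkel cell and smooth muscle markers summed to under 1 in CD34a6. In such bulk samples fewer cells of a type and less RNA per cell cannot be told apart, and the part of these cells in the results below was not tested.

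In all, 6689 of the 14441 loci were called, which is 46.3% of those tested. Of these, 3173 (22.0%) were higher in CD34a6 and 3516 (24.3%) were lower. The difference was at least 2-fold for 2741 higher and 3053 lower loci, and at least 10-fold for 464 and 742. The smallest deposited p, 5e-05, was shared by 3003 called loci, so p-values do not rank them. Summed over tested loci, FPKM came to 405997 in CD34a6 and 916394 in bulk, a ratio of 2.26. The median log2 ratio over all loci, with 1 FPKM added to each value, was 0.003 as deposited and 0.99 once both columns were scaled to the same sum. Higher loci made up 47.4% of the calls as deposited and 59.2% by the direction under equal sums, so the direction of small differences rests on how the columns are scaled. List medians below are read against that shift.

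**Figure D1:**
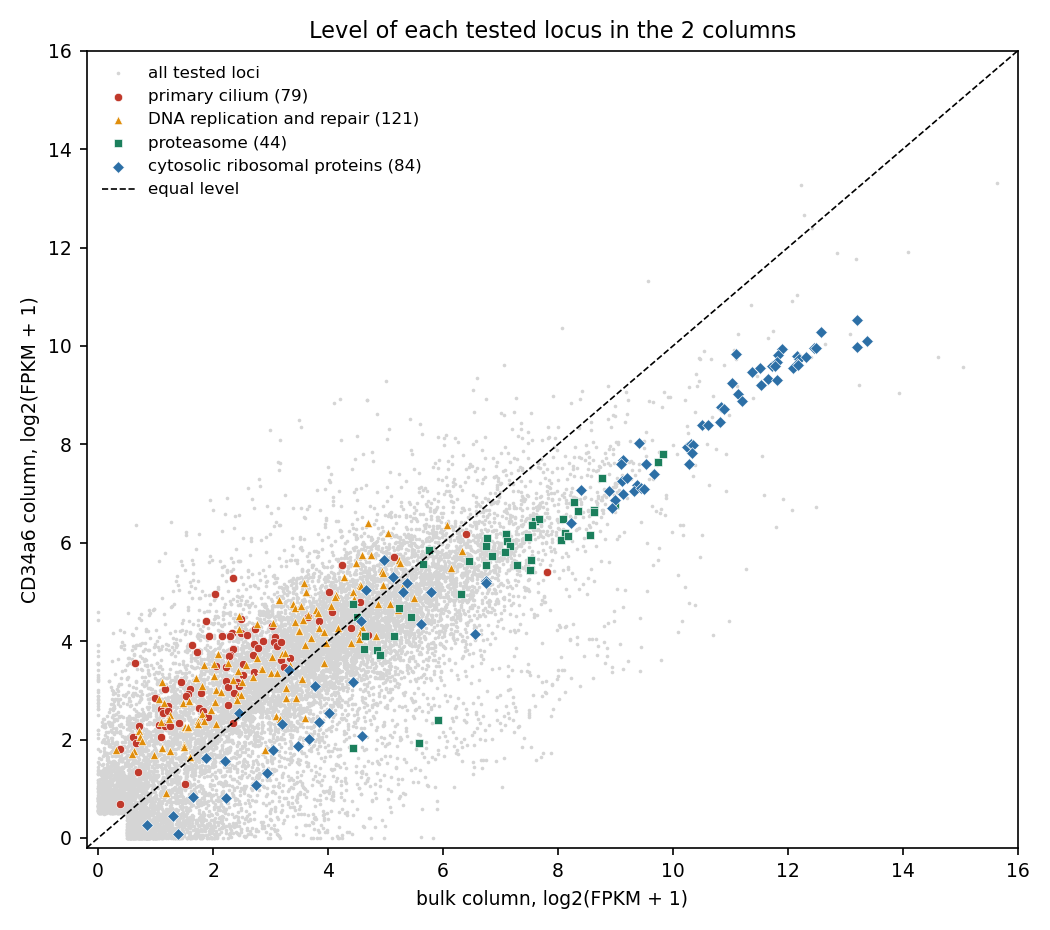
Level of each of the 14441 tested loci as log2(FPKM + 1), bulk on the horizontal axis and CD34a6 on the vertical axis, with the members of 4 gene lists marked and the dashed line at equal levels. Primary cilium genes and replication genes lie mostly above the line at low levels, while most ribosomal protein genes (median log2 ratio -1.96) and proteasome genes (-1.25) lie below it at high levels.

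The transcript signal was spread over more genes in CD34a6. The 10 highest loci held 12.3% of the summed FPKM there and 20.9% in bulk, and 651 loci were needed to reach 50% of the sum against 107 in bulk. The top of the CD34a6 column was Eef1a1 at 10219.8, Krt15 at 9923, Krt5 at 6494 and Apoe at 5427, while in bulk it was Eef1a1 at 50787, Krtdap at 33997 and Krt10 at 25128. Of these, Apoe, which encodes a lipid-carrying apolipoprotein, was level at 5427 against 5466 FPKM. Krt15 and Krt5, keratins of the follicle and of basal keratinocytes, were also not called, with adjusted p of 0.0690 and 0.436 in the authors' deposited table.

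The largest ratios in favour of CD34a6, among called loci of at least 20 FPKM, belonged to genes of quite different kinds. Il31ra, a receptor subunit for the itch cytokine interleukin 31, was at 81.0 FPKM in CD34a6, 0.573 in bulk and 0.0294 in HFSC, a 141-fold difference between the first pair. Chat, the enzyme that makes acetylcholine, was at 22.8 FPKM in CD34a6, 0.428 in bulk and 0.00433 in HFSC. The gene of the vesicular acetylcholine transporter, Slc18a3, shares the deposited locus of Chat and was at 0.627 against 0.0805. Ptprv, a receptor-type tyrosine phosphatase gene that the table lists as a processed transcript, was at 48.8 FPKM in CD34a6, 1.08 in bulk and 0.00766 in HFSC. Trabd2b, whose product is a membrane protease that inactivates Wnt proteins, was at 54.2 FPKM in CD34a6, 1.23 in bulk and 3.26 in HFSC.

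Igfbp5, which binds insulin-like growth factors, was at 115 FPKM in CD34a6, 2.86 in bulk and 0.05003 in HFSC. Gdf10, a ligand of the TGF-beta superfamily, was at 73.3 FPKM in CD34a6, 1.88 in bulk and 0.0245 in HFSC, and Ism1, the secreted protein isthmin, at 100.2 FPKM in CD34a6, 3.02 in bulk and 0.0575 in HFSC. The remaining members were the Hedgehog effector Gli1 (84.2 against 1.42 FPKM), the T-box factor Tbx1 (361 against 10.3), Enox1 (21.2 against 0.630), and the markers Lgr5 and Lhx2. In the HFSC column Trabd2b, Tbx1 at 14.8 and Enox1 at 0.973 lay between the values of bulk and CD34a6, and the other members lay below bulk.

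**Figure D2:**
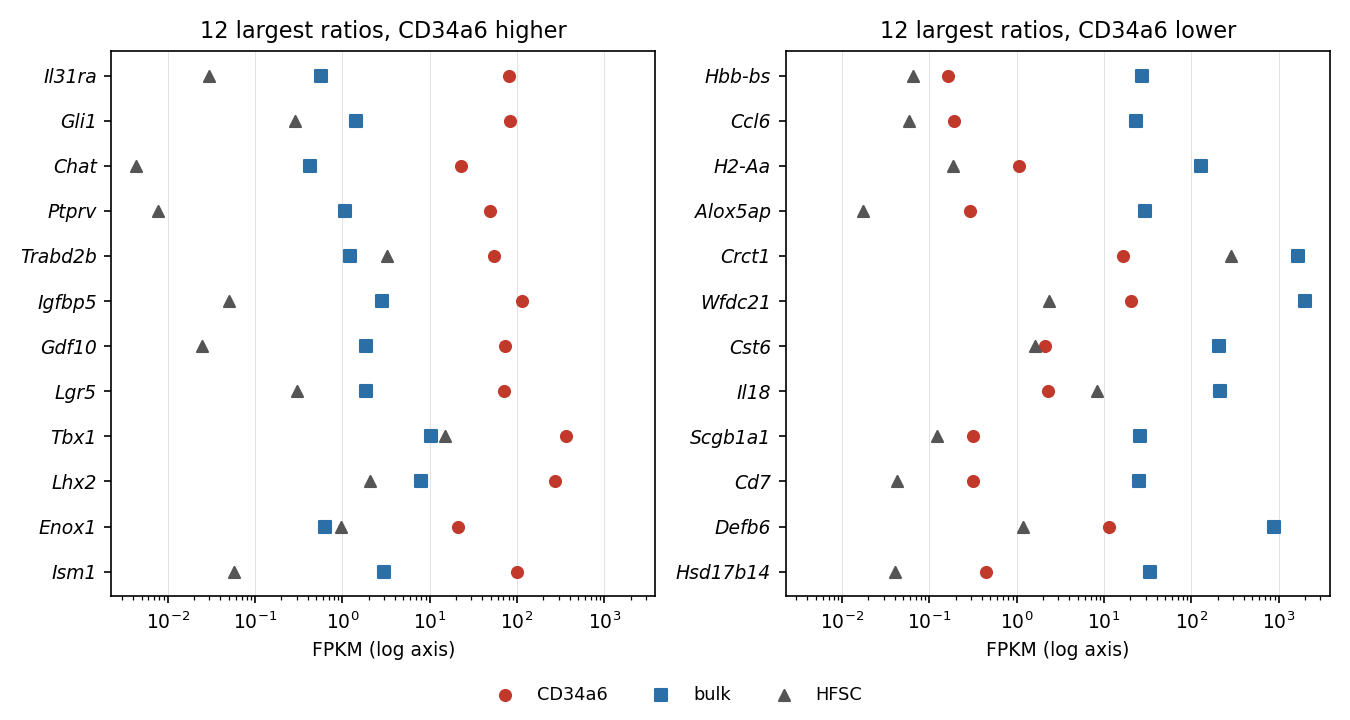
FPKM of the 12 called genes with the largest ratio in each direction (at least 20 FPKM in the higher column), on a log axis, with CD34a6 as circles, bulk as squares and HFSC as triangles. In the left panel every CD34a6 value lies above its bulk and HFSC values, from 21.2 for Enox1 to 361 for Tbx1. In the right panel every bulk value is the highest of the 3.

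At the other end stood genes of blood, of resident immune cells and of the upper, differentiating layers. The beta globin gene Hbb-bs was at 0.163 FPKM in CD34a6 against 27.3 in bulk, and Ccl6, a chemokine of myeloid cells, at 0.192 FPKM in CD34a6 against 23.4 in bulk. H2-Aa, a chain of MHC class II, was at 1.06 against 129, Alox5ap, needed for leukotriene synthesis, at 0.289 against 29.5, and the lymphocyte surface gene Cd7 at 0.319 against 25.4. The summed immune and globin markers given above, 4.23 and 4.07 in CD34a6 against 187 and 161 in bulk, had the same direction.

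Keratinocyte genes made up much of the remainder. Wfdc21, which encodes a secreted whey acidic protein domain protein, was at 20.3 FPKM in CD34a6 against 2006 in bulk, and Crct1, from the epidermal differentiation complex, at 16.6 FPKM in CD34a6 against 1665 in bulk. Cst6, a cystatin that inhibits cathepsins in cornifying skin, was at 2.13 against 209, the cytokine gene Il18 at 2.29 against 212, and the beta-defensin gene Defb6 at 11.3 against 885. The steroid dehydrogenase gene Hsd17b14 was at 0.445 against 33.2, and Scgb1a1, a secretoglobin best known from airway club cells, at 0.319 against 25.6. In the HFSC column Crct1 stood at 288 and Il18 at 8.38, between the other 2 columns, whereas Wfdc21 (2.35) and Defb6 (1.18) were below CD34a6.

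By absolute difference rather than ratio, the largest gains in CD34a6 that were called belonged to S100a6, a calcium-binding protein gene, at 2571 against 759.6 FPKM, and Col17a1, the hemidesmosomal collagen, at 1310.3 against 269 FPKM. They were followed by the chemokine gene Cxcl14 (785 against 133), the matrix protein gene Postn (627 against 31.3), the secreted BMP and Wnt modulator Sostdc1 (648 against 95.4) and the secreted Wnt antagonist Sfrp1 (482 against 17.4). Crip1, a LIM domain protein gene, was at 551 against 90.7, the proteoglycan gene Bgn at 477 against 24.4, and Npnt, which encodes the integrin ligand nephronectin, at 455 against 16.2. Slc6a6, the taurine transporter, was at 479.6 FPKM in CD34a6 against 24.7 in bulk, the largest absolute gain of any solute carrier tested. The largest absolute losses were those of Eef1a1 (10219.8 against 50787), Krtdap (759 against 33997), Krt10, Krt77 (528 against 15602) and a locus that joins Flt3l with Rpl13a (3854 against 17487).

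Beyond these single genes, 39 gene families and complexes were counted. Up to 4 members per family and direction were named by size of ratio, and the other members named below were picked after their values were seen. Lower calls of less than about 2.26-fold turn to the higher side at equal sums, and this is stated where it applies to a named gene. The share of a family called higher ran from 0% to 59.5% of its tested members, against 22.0% over all tested loci, and the share called lower from 1.27% to 82.1%, against 24.3%. Families with many more higher than lower members were those of the primary cilium, the replication fork, zinc fingers, homeobox and other transcription factors, and chromatin. Families with the reverse balance were ribosomal proteins, the proteasome, the respiratory chain, and antigen presentation.

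**Figure D3:**
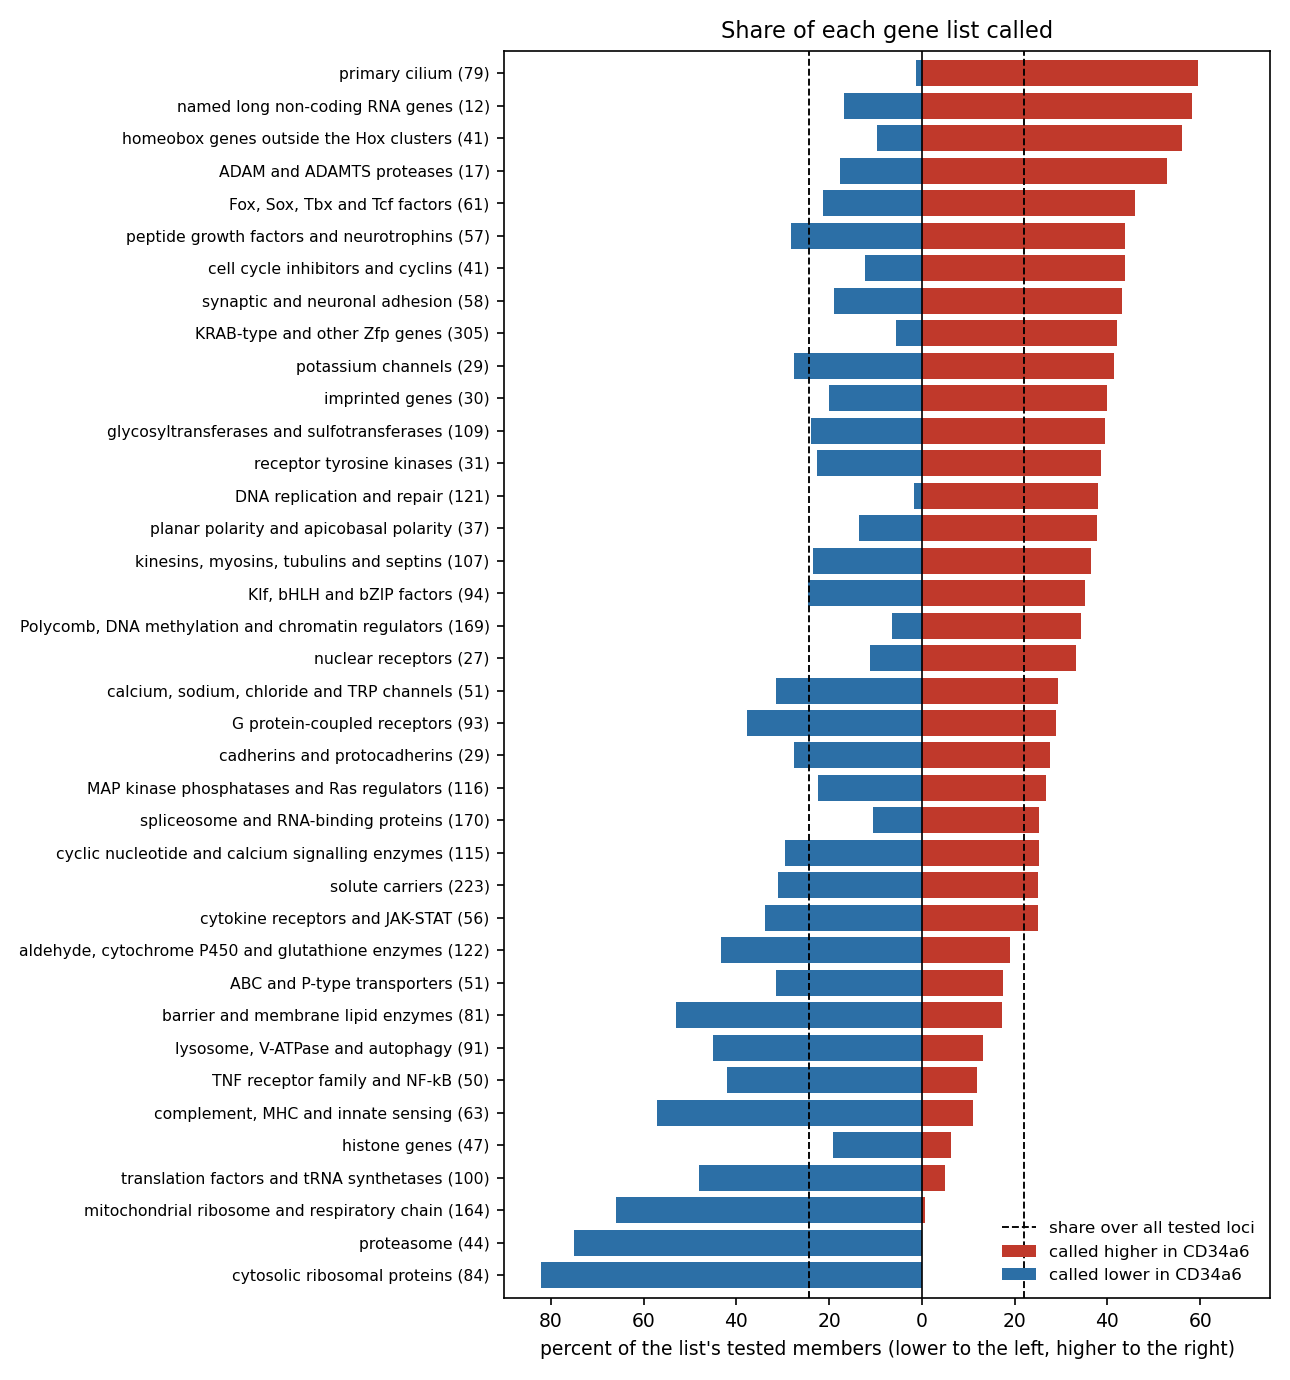
Percent of the tested members of each gene list shown that were called higher (bars to the right) or lower (bars to the left) in CD34a6 than in bulk, with the number tested in brackets. Dashed lines mark the shares over all tested loci, 22.0% higher and 24.3% lower. Primary cilium genes reach 59.5% on the higher side and cytosolic ribosomal proteins 82.1% on the lower side.

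The primary cilium is a microtubule-based sensory organelle of non-dividing cells, through which vertebrate Hedgehog signals pass. Of 82 listed cilium genes 79 were tested, of which 47 (59.5%) were higher, 1 was lower and 31 were not called. Their median log2 ratio was 1.12 as deposited, 2.19 with the columns at equal sums, and 1.05 after subtraction of the median of loci of like exonic length. Kif7, the kinesin that carries Hedgehog signals at the ciliary tip, was at 10.7 against 0.563 FPKM, although 19.1% of its annotated exon sequence is shared with neighbouring genes.

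Intraflagellar transport trains move cargo along the cilium, IFT-B outward and IFT-A back. Of 16 tested IFT-B genes, 8 were higher, 1 was lower and 7 were not called. Ift57 was at 38.1 FPKM in CD34a6, 4.08 in bulk and 9.79 in HFSC, Ift80 at 30.2 FPKM in CD34a6, 3.08 in bulk and 6.49 in HFSC and Ift81 at 20.2 FPKM in CD34a6, 2.66 in bulk and 8.57 in HFSC. The exception was Ift20, a small subunit that also sits at the Golgi, at 41.7 FPKM in CD34a6, 224 in bulk and 30.6 in HFSC. Ift46 (71.6 against 83.4) and Ift27 (18.4 against 20.01) were among those not called, so members of 1 train differed in direction. Of 7 IFT-A genes 5 were higher and 0 lower, with Ift122 at 16.3 against 3.43, Tulp3 at 20.8 against 4.63 and Wdr35 at 16.9 against 4.62.

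The BBSome, an adaptor for membrane proteins of the cilium, and its partner Arl6 had 8 of 9 tested genes higher and 0 lower. Bbs7 was at 6.23 FPKM in CD34a6 against 0.994 in bulk, Bbs1 at 3.87 against 0.631, Ttc8 at 17.9 against 5.62 and Arl6 at 14.99 against 6.26, and Bbip1 at 2.89 against 2.45 was not called. At the transition zone, the gate at the base of the cilium, 10 of 18 genes were higher and 0 lower. Tctn1 was at 12.7 against 2.28, Ahi1 at 7.97 against 1.73 and Nphp4 at 2.50 against 0.3004. These complexes were picked out after their values were seen.

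Promoters of cilium genes often carry an X-box, the site of RFX factors. Its letters, GTTNCC and GNAAC with any 3 bases between them, were looked for on both strands of the 250 bases before each RefSeq gene start (GRCm38.p6). They were present in 0.667% of 32851 promoters, in 0.943% of 9649 tested genes with a promoter there, and in 3 of 69 tested cilium genes. All 3 of those, Bbs7, Ttc26 (3.89 against 1.08 FPKM) and Mks1 (8.15 against 3.69 FPKM), were called higher, as were 42 of the 69 in all. Over all tested genes the letters were found in 1.30% of those called higher, 0.897% of those called lower and 0.799% of those not called. The stretches around the match (in capitals) are shown for Bbs7, chr3:36613478-36613550 on the minus strand, and Mks1, chr11:87853151-87853214 on the plus strand, to show the matched letters in their surroundings. The match of Ttc26 lies in an annotated exon.
Bbs7: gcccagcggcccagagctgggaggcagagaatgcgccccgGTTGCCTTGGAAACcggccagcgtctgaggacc
Mks1: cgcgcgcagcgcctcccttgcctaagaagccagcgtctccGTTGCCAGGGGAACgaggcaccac
The matches end 108 and 11 bases before the RefSeq start of Bbs7 and Mks1. A match is a description of these letters and not evidence of binding.

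DNA replication and repair genes leaned the same way. Of 121 tested, 46 (38.0%) were higher, 2 were lower and 73 were not called, with a median log2 ratio of 0.67 (1.71 at equal sums). The replicative helicase MCM2-7 had 5 of 6 subunit genes higher, with Mcm6 at 52.5 FPKM in CD34a6 against 23.1 in bulk, Mcm3 at 38.3 against 18.3 and Mcm2 at 24.7 against 9.74, and Mcm7 at 47.2 against 21.5 not called. Of 6 genes of the origin recognition complex, which loads this helicase, Orc1 (2.43 against 0.543) and Orc3 (19.9 against 9.79) were higher. Both complexes were picked out after their values were seen, and the difference between them was not tested. Among repair genes, Brca1 was at 6.11 against 1.09, its partner Bard1 at 3.49 against 0.630 and Rad51ap1 at 8.05 against 1.16. The ADP-ribosyltransferase gene Parp8, on the list as a relative of repair genes, was at 21.8 against 4.44. The 2 lower genes were Fancb (2.45 against 6.48) and Ercc8 (4.34 against 7.91), and Ercc8 turned to the higher side at equal sums, with a log2 ratio of 0.28.

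E2F factors switch on replication genes at the start of S phase. The E2F site TTTCCCGC occurred in 0.895% of 32851 promoters, read on both strands, and in 1.93% of 9649 tested genes. It occurred in 11 of 98 replication and repair genes with a promoter in the table (11.2%) and in 7 of the 35 that were called higher. Over all tested genes it was found in 3.13% of those called higher, 1.28% of those called lower and 1.68% of those not called. Stretches from 3 higher genes outside annotated exons are printed to show the site (in capitals, in either orientation): Chek2, chr5:110839791-110839878 on the plus strand, Bard1, chr1:71103147-71103221 on the minus strand, and Cdc6, chr11:98907982-98908060 on the plus strand.
Chek2: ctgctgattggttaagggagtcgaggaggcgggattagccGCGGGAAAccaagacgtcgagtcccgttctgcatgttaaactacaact
Bard1: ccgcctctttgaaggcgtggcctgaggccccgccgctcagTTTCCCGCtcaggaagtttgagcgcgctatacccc
Cdc6: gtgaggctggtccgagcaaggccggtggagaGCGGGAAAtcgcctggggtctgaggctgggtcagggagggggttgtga
Chek2, a DNA damage checkpoint kinase, was at 12.3 FPKM in CD34a6 against 3.25 in bulk, and Cdc6, which loads the helicase onto origins, at 5.87 FPKM in CD34a6 against 1.99 in bulk, with adjusted p of 2.12e-04 and 0.0150 in the authors' deposited table.

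Genes that set the pace of the cell cycle were mixed in kind. Of 41 tested cyclins, inhibitors and their regulators, 18 (43.9%) were higher and 5 (12.2%) lower. Gas1, a cell surface protein first described in growth arrest and also a Hedgehog co-receptor, was at 184 FPKM in CD34a6, 15.03 in bulk and 19.5 in HFSC. Cdkn1b, the inhibitor p27, was higher at 92.2 against 32.2 FPKM, while the inhibitor genes Cdkn1a (24.8 against 563) and Cdkn2b (1.07 against 25.5) were lower. The G1 cyclin genes Ccnd1 (50.9 against 17.7) and Ccnd2 (68.5 against 33.1) and the mitotic cyclin genes Ccna2 (42.3 against 11.6) and Ccnb1 (20.9 against 9.33) were all higher. Cdk4 (319 against 331) and Cdk1 (69.5 against 35.4) were not called.

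Of 41 tested homeobox genes outside the Hox clusters, 23 (56.1%) were higher and 4 lower, with a median log2 ratio of 0.98. All 5 tested Irx genes were higher, led by Irx4 at 42.2 FPKM in CD34a6, 3.97 in bulk and 2.197 in HFSC and Irx1 at 23.1 FPKM in CD34a6, 3.49 in bulk and 24.7 in HFSC, and Irx2 was the most abundant of the 5 at 113 against 37.6 FPKM. The TALE cofactor genes Pbx3 (23.6 against 3.14) and Meis1 (13.4 against 2.62) and also Barx2 (235 against 102) were higher too. Dlx2 at 12.3 against 0.532 and Dlx5 at 1.96 against 4.87 took opposite directions. The lower members included Pou2f3 (15.1 against 79.7), the founding factor of tuft cells that is also expressed in suprabasal epidermis, and Cux1 (4.46 against 26.7).

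Among 61 tested Fox, Sox, Tbx, Tcf and related factors, 28 (45.9%) were higher and 13 lower. Their median log2 ratio of 0.69 came to 0.33 after length was subtracted. Besides Tbx1, the nuclear factor I gene Nfib was at 228 FPKM in CD34a6, 26.2 in bulk and 25.0 in HFSC, Nfix at 267 against 94.4 and Nfatc1, a calcineurin-dependent factor of bulge quiescence, at 106 FPKM in CD34a6, 11.7 in bulk and 5.78 in HFSC. Tcf7l1 at 25.4 against 1.43 and Tcf7l2 at 25.7 against 4.51, which bind beta-catenin, were higher, as was Foxc1 at 56.4 against 10.7. Nfatc4 was higher (6.05 against 0.176) and Nfatc2 lower (0.451 against 4.43). Lower members also included Gata6 (0.254 against 4.44), a factor of the upper follicle duct, Elf3 (0.949 against 7.28) and Foxn1 (0.797 against 5.24).

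The list of Klf, bHLH and bZIP factors, which also holds Grainyhead and other factors, was more balanced. Of 94 tested members 33 (35.1%) were higher and 23 (24.5%) lower. Mycn had a large ratio at a modest level, 10.5 against 0.410 FPKM. The E protein genes Tcf12 (82.8 against 14.3), Tcf3 (70.9 against 20.9) and Tcf4 (23.8 against 9.49) were higher, and so was Creb5 (19.5 against 1.24). On the lower side were factors of keratinocyte differentiation, Grhl3 at 3.35 FPKM in CD34a6 against 46.5 in bulk, Grhl1 at 17.0 against 114, Cebpa at 59.1 against 232 and Klf5 at 11.96 against 80.4. Within the Grainyhead family Grhl2 was higher (43.3 against 12.9), so its members did not move together. Klf4, a barrier factor, was level at 207 against 207 and not called.

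Zinc finger genes formed the largest list. Of 305 tested Zfp genes, 128 (42.0%) were higher and 17 (5.57%) lower, with a median log2 ratio of 0.56. Most were low: Zfp275 was at 10.5 FPKM in CD34a6 against 0.753 in bulk, Zfp462 at 7.53 against 0.744 and Zfp365 at 16.8 against 1.85. The largest opposite ratio was that of Zfp750, a factor of terminal epidermal differentiation, at 6.39 against 68.7 FPKM. Nuclear receptors had 9 of 27 higher and 3 lower, and their small median of 0.14 turned to -0.03 once length was taken into account. Vdr, the vitamin D receptor, was at 140.0 FPKM in CD34a6, 37.7 in bulk and 53.8 in HFSC, the glucocorticoid receptor gene Nr3c1 at 48.6 FPKM in CD34a6, 11.6 in bulk and 16.7 in HFSC, and the clock repressor Nr1d2 at 33.3 against 8.10. Rora (9.45 against 37.1) and Ppara (1.34 against 4.63) were lower, while Rarg (145 against 140.1) and Rxra (72.0 against 55.3) were not called.

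Chromatin regulators were seldom lower. Of 169 tested, 58 (34.3%) were higher and 11 (6.51%) lower, and 100 were not called. The list had a median exonic length of 6779 nt. Among all loci of 5810 to 7146 nt, 28.7% were higher and 17.8% lower. The median log2 ratio of the list, 0.55, came to 0.21 after length was subtracted. Smarca2, the BRM ATPase of the SWI/SNF remodelling complex, was the most abundant of the higher genes at 144 FPKM in CD34a6, 24.3 in bulk and 36.2 in HFSC. Chd3 (107 against 25.6), Atrx (61.7 against 23.6), the maintenance methylation factor Uhrf1 (55.4 against 13.2) and Ezh2 (34.99 against 18.4), the Polycomb methyltransferase, were also higher. Hdac5 was lower at 50.9 against 133, as were Kdm5b (17.2 against 46.4) and the arginine methyltransferase gene Prmt7 (11.8 against 42.1). Of 47 tested histone genes 3 were higher and 9 lower. Their median of -0.08 turned to 0.83 at equal sums and 0.54 after length was subtracted, and most replication-dependent histone transcripts lack a poly(A) tail, so libraries of polyadenylated RNA hold few of them. H1f0, a linker histone of non-dividing cells, was higher at 156 against 59.6 FPKM, and the H2A variant gene H2afj lower at 16.7 against 100.3 FPKM.

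Imprinted genes, expressed from 1 parental copy, had 12 of 30 tested members higher and 6 lower. Peg3 was at 24.8 FPKM in CD34a6, 1.42 in bulk and 3.95 in HFSC and Sgce at 10.6 FPKM in CD34a6, 0.508 in bulk and 0 in HFSC, while Ascl2 (0.675 against 3.22) was lower. Copg2 (34.2 against 73.2) and H13 (27.2 against 51.7) were called lower as deposited, with log2 ratios that turned to 0.08 and 0.24 at equal sums. Of 12 named long non-coding RNAs 7 were higher and 2 lower. Neat1, the scaffold of paraspeckles, was at 295 FPKM in CD34a6, 48.9 in bulk and 74.5 in HFSC, Firre at 26.6 against 8.56 and the X-inactivation regulator Ftx at 5.29 against 0.927. Malat1, the neighbour of Neat1 in the genome, was at 54.3 against 44.9 and not called. Lower members were the snoRNA hosts Snhg8 (21.3 against 69.3) and Snhg6.

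Among ligands, 25 of 57 tested growth factors and neurotrophins (43.9%) were higher and 16 (28.1%) lower. Ptn, the heparin-binding factor pleiotrophin, was the most abundant of the higher ones at 273 FPKM in CD34a6, 17.8 in bulk and 1.06 in HFSC. Fgf1 (16.5 against 0.514), Kitl (13.2 against 0.814), the ligand of the melanocyte and mast cell receptor Kit, and Tgfb3 (23.9 against 2.37) were higher. So were the neurotrophin genes Bdnf (6.48 against 0.264) and Ntf5 (9.22 against 1.87). Of the EGF receptor ligands, Btc (1.25 against 29.0), Epgn (0.720 against 12.9), Ereg (0.310 against 7.73), Areg (0.360 against 5.05) and Tgfa (1.74 against 7.88) were lower, Egf was higher (0.895 against 0.257) and Hbegf (1.54 against 2.65) was not called. In HFSC, Epgn was at 74.6 and Btc at 0.356.

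Receptor tyrosine kinase genes had 12 of 31 tested members higher and 7 lower. Fgfr1 was at 196 FPKM in CD34a6, 7.99 in bulk and 16.6 in HFSC, a 24.5-fold difference between the first pair, and the decoy receptor gene Fgfrl1 at 11.6 against 0.697. The Wnt5a receptor gene Ror2 was at 9.05 against 0.228, its relative Ror1 at 11.2 against 0.728, and Mertk, which mediates uptake of dying cells, at 24.1 against 0.953. Erbb3 (18.3 against 51.4), Erbb2 (29.0 against 72.0) and Tyro3 (9.65 against 40.7) were lower. Thus Mertk and Tyro3, of the same TAM receptor family, took opposite directions.

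G protein-coupled receptors had 27 of 93 tested members higher and 35 lower, and their median of -0.37 turned to 0.49 at equal sums. The R-spondin receptor genes Lgr4 (136 against 14.5), Lgr5 and Lgr6 (48.6 against 8.59) were all higher. Ednra, an endothelin receptor, was at 22.4 FPKM in CD34a6, 0.679 in bulk and 1.797 in HFSC, the GABA-B receptor subunit Gabbr1 at 39.99 against 5.43, and the lysophosphatidic acid receptor Lpar1 at 10.2 against 1.101. On the lower side, Hcar2, the niacin receptor, was at 4.44 FPKM in CD34a6 against 141 in bulk. Mrgprf was higher at 41.1 against 2.15 while Mrgprb11 (6.06 against 259) and Mrgprb3 (1.73 against 91.8) were lower, and Mrgprb genes are near-identical copies whose reads may not be separated.

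Cytokine receptors and JAK-STAT genes had 14 of 56 tested members higher and 19 lower, with a median of -0.32 that turned to 0.71 at equal sums. Next to Il31ra, Cntfr (3.59 against 0.477), Lifr (9.25 against 2.57) and Il17rb (8.33 against 1.16) were higher. Lower genes included the decoy receptor Il1r2 (8.10 against 221), the receptor antagonist Il1rn (4.07 against 126), Il17rc (66.3 against 518) and Ghr, the growth hormone receptor (5.12 against 54.4). In the TNF receptor and NF-kB list 6 of 50 were higher and 21 (42.0%) lower. The median of -0.51 turned to 0.52 at equal sums. Eda, the ligand ectodysplasin that drives hair placodes, was higher at 12.1 against 1.52, and Tnfrsf19 lower at 3.15 against 37.2.

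Ion channels showed large ratios on both sides. Of 29 tested potassium channel genes 12 (41.4%) were higher and 8 (27.6%) lower, against 22.0% and 24.3% over all tested loci. Kcnk2, a mechanically gated background channel (TREK-1), was the most abundant of the higher ones at 35.7 FPKM in CD34a6, 2.02 in bulk and 2.17 in HFSC, and the calcium-activated channel gene Kcnn3 was at 8.14 FPKM in CD34a6, 0.134 in bulk and 0.0913 in HFSC. Kcnk7 (8.14 against 45.1) and the inward rectifier gene Kcnj16 (1.104 against 12.2) were lower. Of 51 other channel genes 15 (29.4%) were higher and 16 (31.4%) lower, not far from those shares. Trpv4, an osmotically and mechanically gated calcium channel, was at 107 FPKM in CD34a6, 6.63 in bulk and 12.5 in HFSC, the L-type calcium channel gene Cacna1c at 4.93 against 0.142 and Orai2 at 14.6 against 0.760. Orai1, the main store-operated channel, was lower at 6.15 against 33.7, while Orai3 was higher at 6.93 against 3.12. Clic3 (32.0 against 575) and Ano9 (17.3 against 152) had the highest bulk levels among the lower channel genes.

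Transporter lists were close to balance. Solute carriers had 56 of 223 (25.1%) higher and 69 (30.9%) lower, near the shares over all loci, and their median of -0.06 turned to 0.97 at equal sums. After Slc6a6, the glutamine transporter Slc38a2 (265 against 75.6), the nucleoside transporter Slc29a1 (116 against 21.8) and the zinc transporter Slc39a13 (91.4 against 10.9) were the most abundant higher members. Slc46a2 (0.807 against 37.0), Slc6a14 (1.22 against 43.4) and the iron transporter Slc11a2 (12.6 against 91.2) were lower. ABC and P-type transporters had 9 of 51 higher and 16 lower, with a median of -0.15 that turned to 1.00 at equal sums. Atp2a3, a calcium pump of the endoplasmic reticulum, was at 57.7 FPKM in CD34a6, 2.26 in bulk and 0.0212 in HFSC, and Abca12, which loads lipids into lamellar granules, was lower at 4.42 against 70.6 FPKM.

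Genes first known from synapses and axons were present among the higher calls, with 25 of 58 tested members (43.1%) higher and 11 lower. Dlg4, the scaffold PSD-95, was at 17.1 FPKM in CD34a6, 0.358 in bulk and 1.64 in HFSC, the neuroligin gene Nlgn2 at 31.0 against 1.98 and Nrcam at 16.7 against 0.499. Tenm2, a teneurin, was the most abundant at 103 against 10.5 FPKM, followed by Cadm1 at 66.2 against 10.4 FPKM. Dlg2, a paralog of Dlg4, was lower at 1.67 against 18.96, and Dlg1 (27.5 against 24.7) was not called. Schwann cell markers, given above, summed to 2.76 against 0.414, and their part in these values was not tested.

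Cadherins had 8 of 29 (27.6%) higher and 8 (27.6%) lower, near the 22.0% and 24.3% over all tested loci. Dsg3, the desmoglein of basal cells, was higher at 130.3 FPKM in CD34a6, 27.8 in bulk and 218 in HFSC, and Dsg1a, that of suprabasal cells, lower at 36.2 FPKM in CD34a6, 394 in bulk and 15.01 in HFSC. Dsg2 (10.1 against 6.52) was not called. The atypical cadherin genes Fat1 (76.1 against 17.5) and Fat2 (40.7 against 12.6) were higher, and Cdh1 (128 against 196), the epithelial cadherin, was not called. In the polarity list 14 of 37 (37.8%) were higher and 5 lower, and the median log2 ratio of 0.66 came to 0.34 after length was subtracted. Among the higher were Gpsm2 (96.2 against 32.8) and Numa1 (57.8 against 28.2), which orient the mitotic spindle, and the planar polarity genes Vangl2 (26.4 against 14.5), Fzd6 (25.7 against 15.1) and Celsr1 (24.1 against 14.7). The apical determinant gene Crb3 (12.5 against 55.1) and another polarity gene, Llgl2 (19.02 against 65.5), were lower.

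Cytoskeletal genes had more higher than lower calls. Of 107 kinesins, myosins, tubulins and septins, 39 were higher and 25 lower. Myh10, a non-muscle myosin II, was at 6.2002 against 0.458 and the mitotic kinesin gene Kif11 at 19.9 against 4.47. Most alpha and beta tubulin genes were lower, with Tubb4b at 99.5 against 832, Tuba1a at 30.1 against 364 and Tuba8 at 3.12 against 169. Tubb6 was higher (9.45 against 2.67), and Tubb5 (231 against 167) and Tuba1b (64.2 against 101) were not called. Tubulins are close paralogs, and how reads shared between them were counted is not given in the sources used here.

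ADAM and ADAMTS proteases had 9 of 17 tested members higher and 3 lower. Adamtsl4, a fibrillin-binding matrix protein, was at 74.6 FPKM in CD34a6, 3.43 in bulk and 5.47 in HFSC, and Adamts19 at 14.3 against 0.373 and Adamts17 at 13.2 against 1.25 were also higher, while Adamts14 was lower at 1.37 against 8.21. Adamts1, called lower at 2.67 against 4.84, turned to a log2 ratio of 0.27 at equal sums. Of 109 glycosyltransferases and sulfotransferases 43 (39.4%) were higher and 26 (23.9%) lower. Of the enzymes that start mucin-type O-glycans, Galnt15 (16.9 against 0.194), Galnt14 (13.7 against 0.318) and Galnt18 (49.5 against 9.80) were higher, and Galnt6 (0.546 against 7.46) and Galnt1 (17.5 against 41.8) lower. Lfng, which modifies Notch, was at 50.8 against 7.88, and the heparan sulfate enzymes Ext1 (42.5 against 17.4), Glce (24.6 against 9.23) and Sulf2 (51.2 against 13.1) were higher. The fucosyltransferase genes Fut2 (4.18 against 71.2) and Fut1 (4.91 against 52.3) were lower.

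Of 84 tested cytosolic ribosomal protein genes 69 (82.1%) were lower and 0 higher, with a median log2 ratio of -1.96, or -0.88 at equal sums. Rplp1 was at 1090.2 FPKM in CD34a6, 10584 in bulk and 2870.3 in HFSC, Rplp0 at 1013 FPKM in CD34a6, 9418 in bulk and 2016 in HFSC and Rps14 at 1467 FPKM in CD34a6, 9481 in bulk and 1762 in HFSC. Many ribosomal protein genes have near-identical processed pseudogenes, so their values are uncertain where reads could be split. Translation factors and tRNA synthetases had 48 of 100 lower and 5 higher, and their median of -0.75 turned to 0.38 at equal sums. Eef1b2 was at 640.5 against 3528 and Eif5a at 327 against 1521, while Eif4a2 (226 against 128) and Eif4g3 (29.9 against 7.34) were higher.

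The proteasome had 33 of 44 tested genes (75%) lower and 0 higher, with a median log2 ratio of -1.25, or -0.09 at equal sums. Of 14 genes of the 20S core 13 were lower, by a median log2 ratio of -1.66, with Psmb1 at 108 FPKM in CD34a6, 511 in bulk and 164 in HFSC. Of 19 genes of the 19S regulatory particle 14 were lower, with a median of -1.12 that came to 0.04 at equal sums. The immunoproteasome genes Psmb8 (2.82 against 46.8 FPKM) and Psmb9 (4.30 against 58.9 FPKM), induced by interferon and abundant in immune cells, had the largest ratios among the called members. The summed immune markers were 4.23 against 187, and their part here was not tested.

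The letters of nuclear respiratory factor 1, GCGCA and GCGC with any base between them, were looked for likewise on both strands. They were found in 6 of 37 proteasome genes with a promoter in the table (16.2%), in 9.09% of 9649 tested genes and in 3.74% of 32851 promoters. Over all tested genes the share was 7.91% of those higher, 7.52% of those lower and 10.4% of those not called, so it did not follow the direction of the calls. Stretches are printed for 3 lower genes, with the match in capitals, as examples of promoters of 1 complex: Psmc5, chr11:106256096-106256153, Psmd14, chr2:61711574-61711663, and Psma3, chr12:70974505-70974594, all on the plus strand.
Psmc5: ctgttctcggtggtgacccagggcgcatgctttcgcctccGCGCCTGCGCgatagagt
Psmd14: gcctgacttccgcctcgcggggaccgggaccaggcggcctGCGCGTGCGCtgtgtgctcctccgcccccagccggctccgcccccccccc
Psma3: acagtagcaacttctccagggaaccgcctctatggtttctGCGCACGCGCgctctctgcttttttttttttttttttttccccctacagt
Psmc5, a 19S ATPase, was at 72.8 FPKM in CD34a6 against 279 in bulk, Psmd14, the deubiquitinase of the lid, at 49.5 FPKM in CD34a6 against 183 in bulk, and Psma3 of the core at 12.2 FPKM in CD34a6 against 28.8 in bulk, with an adjusted p of 0.0198 for Psma3 in the authors' deposited table.

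Nuclear genes of the respiratory chain and the mitochondrial ribosome had 108 of 164 tested members (65.9%) lower and 1 higher, with a median of -1.20, or -0.08 at equal sums. The list was matched by gene symbol and also holds assembly factors and a few relatives that are no subunits. The mitochondrial ribosome had 42 of 72 genes lower and 0 higher, with a median of -1.08 that came to 0.05 at equal sums. Uqcrh of complex III was at 252 against 1025 and Atp5b at 477 against 1191. Ndufa4 was at 102 FPKM in CD34a6, 884 in bulk and 184 in HFSC, and its paralog Ndufa4l2 at 6.94 FPKM in CD34a6, 108 in bulk and 173 in HFSC. The exception was Cox6b2, known as a testis form of a complex IV subunit, at 13.6 against 2.65, while its common form Cox6b1 was lower at 174 against 805.

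Lysosome, V-ATPase and autophagy genes had 41 of 91 (45.1%) lower and 12 higher, with a median of -0.48 that turned to 0.52 at equal sums. Of 20 V-ATPase subunit genes 16 were lower and 2 higher, with Atp6v1c2 at 4.25 against 122 and Atp6v0b at 95.7 against 382 lower and Atp6v1b1 at 8.28 against 1.11 higher. Cathepsin H, encoded by Ctsh, was at 18.5 FPKM in CD34a6, 277 in bulk and 260.5 in HFSC, and cathepsin Z (Ctsz) was higher at 34.7 against 4.77. The autophagy kinase genes Ulk1 (40.8 against 22.8) and Ulk2 (9.96 against 4.02) were higher. Mitf, a regulator of lysosomal genes and of pigment cells, was at 13.9 FPKM in CD34a6 against 0.981 in bulk. The melanocyte markers given above summed to 8.34 and 6.65, with Dct higher and Tyrp1 lower. Their part in this value was not tested.

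Of 81 tested enzymes of barrier and membrane lipids, 43 (53.1%) were lower and 14 higher, with a median of -1.01 that turned to 0.07 at equal sums. Elovl1 (80.7 against 1158) and Elovl4 (15.6 against 406), which make very long fatty acids, the lipoxygenase genes Alox12b (3.57 against 128) and Alox12e (23.5 against 504) and the phospholipase gene Pla2g2f (58.4 against 862) were lower. Alox8 was higher at 7.80 against 0.786, as were Sgms2, a sphingomyelin synthase (23.3 against 2.73), and Cers4, a ceramide synthase (20.8 against 5.92). Among aldehyde, P450 and glutathione enzymes 53 of 122 (43.4%) were lower and 23 higher, and their median of -0.68 turned to 0.22 at equal sums. Prdx5 (132 against 1952) and Gpx1 (329 against 1219), which remove peroxides, were lower, while both subunits of the enzyme that limits glutathione synthesis, Gclc (39.6 against 7.29) and Gclm (63.3 against 23.4), were higher. Cyp46a1, the cholesterol 24-hydroxylase, was at 3.94 FPKM in CD34a6, 0.0540 in bulk and 0.0121 in HFSC.

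Of 63 tested genes of antigen presentation, complement and innate sensing, 36 (57.1%) were lower and 7 higher, with a median of -1.39, or -0.58 at equal sums. Class I genes, which nearly all cells express, were lower as well as class II, with B2m at 143 FPKM in CD34a6 against 1579.9 in bulk, H2-K1 at 95.9 against 876, H2-D1 at 119 against 942 and the peptide transporter Tap1 at 27.6 against 142. MHC class I genes are near-identical copies and their values are uncertain. Higher members included the complement genes C9 (5.93 against 0.273) and C1ra (1.35 against 0.109) and the complement inhibitor Serping1 (1.91 against 0.168). The list also holds C1q and TNF related genes that are not complement components. Of these, C1qtnf1 (28.4 against 3.48) and C1qtnf6 (3.51 against 0.637) were among the higher members. The immune markers, none of which was higher, were given above and their part here was not tested.

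Intracellular signalling enzymes were close to the shares over all loci. In the cyclic nucleotide and calcium list 29 of 115 were higher and 34 lower. Adcy1, a calcium-stimulated adenylyl cyclase, was at 24.2 FPKM in CD34a6, 0.956 in bulk and 0.0495 in HFSC, the kinase gene Camk4 at 11.4 against 0.267, and the phospholipase gene Plch2 at 173 against 32.9. Among calmodulin genes, Calm4, a skin calmodulin-like protein, was lower at 101 FPKM in CD34a6, 4321 in bulk and 357 in HFSC, as was Calm2 (228 against 860.0), and Calm3 (49.2 against 35.003) was not called. In the MAP kinase list 31 of 116 were higher and 26 lower. The Ras inhibitors Spred1 (32.4 against 4.96), Spred2 (17.1 against 7.62) and Spred3 (5.22 against 0.213) and Spry2 (16.2 against 5.81) were higher, while Hras (116 against 436), Mapk3 (88.4 against 203) and Dusp1 (51.1 against 128) were lower.

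RNA-binding proteins were higher about as often as all tested loci but less often lower. Of 170 tested, 43 (25.3%) were higher, against 22.0% over all loci, and 18 (10.6%) lower, against 24.3%. The median log2 ratio of 0.35 came to 0.15 after length was subtracted. Hnrnph1 was at 403 against 149, Rbm39 at 211 against 106 and the splicing regulator gene Mbnl1 at 105 against 43.9. Msi1, a translational regulator of stem and progenitor cells, was at 3.16 FPKM in CD34a6, 0.386 in bulk and 0.0156 in HFSC. Sf3b6, a subunit of the U2 particle, was lower at 27.7 against 110.0, and so was Igf2bp3, which binds messenger RNA in the cytoplasm, at 1.70 against 5.81.

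Some called loci were listed at 0 in 1 column, 29 in bulk and 114 in CD34a6. With no read counts, no fold can be given for them. The highest in bulk among those at 0 in CD34a6 included the lymphocyte genes Nkg7 (13.5 in bulk), Ctsw (11.95) and Cd3d (6.96). Of the reverse group, the highest in CD34a6 were small RNA genes and processed pseudogenes, among them Mir1946b (8.15 in CD34a6) and Gm25541 (14.3). Among 1272 loci of at least 100 FPKM in the higher column, 275 were not called.

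The ratio followed the length of the gene. Over 13492 loci with an annotated exonic length (93.4%), Spearman's rho between length and log2 ratio was 0.31 across genes, which are not independent replicates. Of the shortest genes (50 to 1009 nt) 3.03% were higher and 30.7% lower, and of the longest (9486 to 123179 nt) 35.6% and 12%. Processed pseudogenes, which are short and share sequence with their parent genes, had 22 of 808 higher and 218 lower. The part of length in the list results was addressed only by subtracting the median of loci of like length, which left 35 of the 39 list medians on the side of 0 they had before. Their size could still change. The median went from 0.48 to 0.08 for receptor tyrosine kinases and from 0.45 to 0.22 for cytoskeletal genes, but from 0.15 to 0.34 for imprinted genes.

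A separate set of libraries bears on the same genes. These were the CD34+ and CD34neg fractions, both positive for alpha-6 integrin, sorted from total epidermal cells grown as hair follicle stem cell cultures (3C cultures), with 3 libraries each and no genotype named in their labels. They share no library with CD34a6 or bulk and have their own deposited table, in which 11370 loci were tested and 6.79% called, 2.08% as higher in the CD34+ fraction and 4.71% as lower. That table has the same layout, and its values are read as FPKM from it. The processing notes of these libraries name other tools, so how its values and adjusted p-values were made is not settled. Levels are not compared across the tables.

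Of 2279 genes called higher in CD34a6 and tested in both tables, 161 (7.06%) were higher in the CD34+ fraction and 11 (0.483%) lower. Of 2475 called lower, 16 (0.646%) were higher and 395 (16%) lower, and of 5799 not called, 49 (0.845%) and 106 (1.83%). The genes higher in both, ranked by the smaller of their log2 ratios, began with Bgn, a small proteoglycan, at 59.2 against 1.4 FPKM in the CD34+ and CD34neg fractions, followed by Cd34, the gene of the sorting marker (38.7 against 2.26), the glypican gene Gpc6 (17.2 against 1.52) and Cspg4, the NG2 proteoglycan (10.9 against 1.02). Next were Enpp1, which makes pyrophosphate (8.84 against 1.05), Pdzrn3 (18.1 against 3.02), the matrix protein gene Sparc (10.3 against 1.43) and Lhx2 (6.36 against 0.695). Their values in CD34a6 and bulk were 14.3 against 1.27 for Gpc6, 67.6 against 4.73 for Cspg4, 17.0 against 2.02 for Enpp1, 53.2 against 5.25 for Pdzrn3 and 234 against 42.5 for Sparc.

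**Figure D4:**
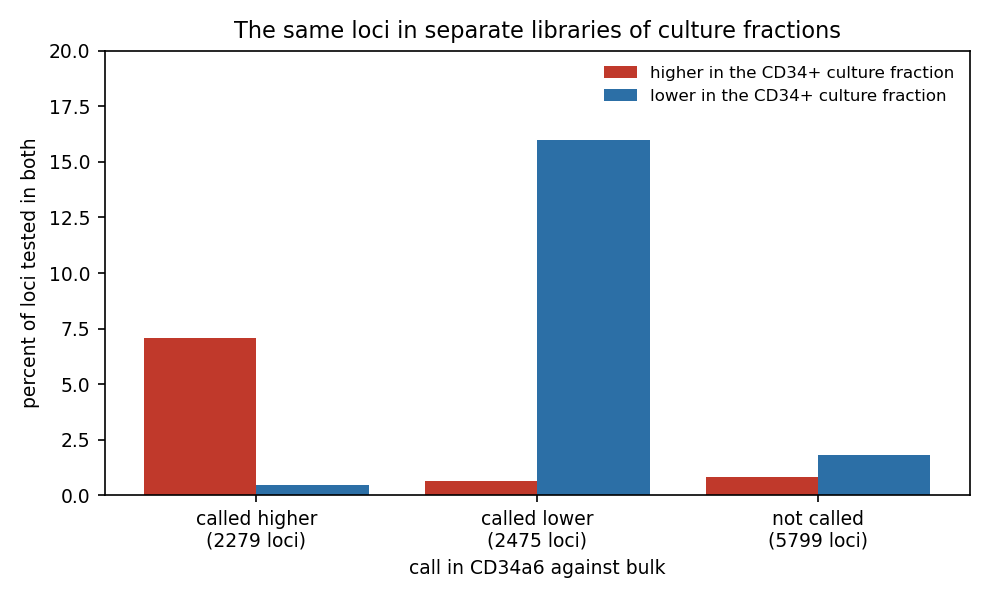
Percent of loci called higher or lower in the CD34+ against the CD34neg fraction of 3C cultures, among loci called higher, called lower or not called in CD34a6 against bulk and tested in both tables. Loci called higher in CD34a6 were higher in the CD34+ fraction for 7.06% and lower for 0.483%, and loci called lower in CD34a6 were higher for 0.646% and lower for 16%.

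The genes lower in both began with Krtdap (28.8 against 147 FPKM in the CD34+ and CD34neg fractions), Calm4 (6.31 against 32.5), the alarmin gene S100a9 (9.10 against 45.0), the stefin gene Stfa1 (123 against 562) and the fatty acid carrier gene Fabp5 (37.0 against 158). Ribosomal protein genes were lower in the CD34+ fraction for 62 of 81 tested and higher for 0, and proteasome genes for 11 of 44 and 0. Of 73 cilium genes tested there, 1 was higher and 0 were lower, with a median log2 ratio of 0.00. Genes with opposite directions included Pthlh, parathyroid hormone-like hormone, at 7.19 against 1.15 FPKM in CD34a6 and bulk and 1.15 against 3.50 in the culture fractions. Tia1, an RNA-binding protein of stress granules, was at 37.2 against 10.9 FPKM and 17.6 against 33.8, and Susd2 at 32.1 against 521 FPKM and 122 against 56.0. Slc40a1, the iron exporter ferroportin, was at 4.25 against 39.6 FPKM and 2.18 against 0.481.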

How the data were processed

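RNA-seq of 3 populations of mouse keratinocytes was described. The deposited table held FPKM per population and locus, a log2 ratio, a test statistic (a score), a p-value and a q-value, all computed by the authors, in the layout of a Cuffdiff comparison per the file headers. Per the submitters' processing notes the tools included Cuffdiff, Cufflinks 2.2.1, HISAT 0.1.6 and StringTie 1.1.0, with FastQC 0.11.3 for read quality, while the labels of the same samples name TopHat2 for alignment. For the culture fractions the notes name FastQC 0.11.2, cutadapt 1.5, TopHat2 2.0.13, Subread 1.4.2, featureCounts and DESeq2 1.8.1, although their deposited table has the same Cuffdiff layout with FPKM-like values per the file headers, so its unit and test are not settled. The libraries were directional, and whether strand was used in counting is not given in the sources used here, so overlapping and antisense genes cannot be told apart: of 14441 loci, 10668 name 1 gene and overlap no other tested locus. Where loci overlap, values are uncertain.

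Calls are the authors' q-values under 0.05, adjusted by them over all 3 pairs. Medians used log2 of the ratio of FPKM + 1. Exonic lengths came from GENCODE M21 (GRCm38) and promoters from RefSeq (GRCm38.p6). The analysis used Python 3.11.15, pandas 2.3.3, numpy 2.4.6, scipy 1.17.1 and matplotlib 3.10.9, and was tested on simulated data. Genes were named by rule: the 5 markers, the 12 largest ratios each way of at least 20 FPKM in the higher column (keratin, Krtap, Sprr, Lce, Gm, Rik, mitochondrial, Y-linked genes and pseudogenes left out), the 12 largest differences each way, up to 4 called members per list and direction of at least 3 FPKM, and the 6 highest called loci at 0 in a column. Other named genes, the complexes and the motifs were chosen after their values were seen. Members and lists were chosen with earlier results of these data known, and some list patterns were corrected after the table was read. Alternatives covered the threshold, the adjustment, low values, fold size, overlapping loci, column scaling, pseudocount and length. The culture comparison of dorsomorphin with cyclopamine was not used here. Results of some genes and of 1 gene list are not reported here.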

Additional observations from a re-analysis of the deposited data

How the results depend on the processing

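The counts of 3173 higher and 3516 lower loci stayed within 1.5 times under 7 alternatives, from 2215 to 3957 higher and from 2701 to 3499 lower. With both columns at equal sums no locus was tested again. By direction alone, 3957 of the called loci were then higher and 2732 lower. The median over all tested loci came to 0.99, and the medians of 10 of the 39 lists turned positive: solute carriers 0.97, ABC and P-type transporters 1.00, cytokine receptors 0.71, TNF receptors 0.52, G protein-coupled receptors 0.49, histones 0.83, translation 0.38, lysosome 0.52, barrier lipid enzymes 0.07 and P450 and glutathione enzymes 0.22. Of these, only ABC and P-type transporters lay above the median over all loci. Of 337 named loci 6 turned higher under that scaling, Adamts1 (0.27), Hist1h1b (0.13), Copg2 (0.08), H13 (0.24), Ercc8 (0.28) and E2f2 (0.07). Subtraction of length bins, chosen after seeing the data, turned nuclear receptors to -0.03, histones to 0.54, cyclic nucleotide enzymes to -0.08 and MAP kinase regulators to -0.07. All 39 list medians kept their sign with a pseudocount of 0.1 FPKM, a 1 FPKM minimum or centring. A threshold of 0.01 removed 30 of the 337 calls, and adjustment over the pair alone removed 1, Gm25099. Without keratins the share of signal in the top 10 loci went from 12.3% to 9.52% in CD34a6 and from 20.9% to 19.5% in bulk. No paired analysis was possible because the table holds 1 pooled value per population, and for the same reason no library could be left out in turn. The depth behind each value is unknown.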

Other observations

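Slc25 genes move metabolites and nucleotides across the inner mitochondrial membrane. Of 40 tested, 13 were higher in CD34a6, 7 were lower and 20 were not called. The shares over all tested loci were 22.0% higher and 24.3% lower. The median log2 ratio of the Slc25 genes was 0.35, or 1.42 at equal sums, against 0.003 and 0.99 over all loci. Of 164 genes of the respiratory chain and the mitochondrial ribosome 108 were lower. The difference between these groups was not tested. Zinc carriers of the Slc30 and Slc39 families had 3 of 16 members higher and 4 lower, near the 22.0% and 24.3% over all tested loci. Slc39a13 was higher at 91.4 against 10.9 FPKM, and Slc30a4 was lower at 8.93 against 23.4 FPKM.

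Repair pathways within the replication list are small groups and are given here by count only. Over all tested loci 22.0% were higher and 24.3% lower, and the Fanconi anaemia count on the higher side was near that share. The Fanconi anaemia group, which resolves DNA crosslinks, had 2 of 9 tested genes higher and 1 lower, and mismatch repair had 1 of 6 higher and 0 lower, where MCM2-7 had 5 of 6 higher. The median log2 ratios were 0.35, 0.68 and 1.13. These complexes were picked out after their values were seen, and the differences between them were not tested.

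Called loci were spread over the genome. The share called higher ran from 19.1% to 25.5% per chromosome, against 22.0% over all loci, and the share called lower from 19.8% to 27.8%, against 24.3%.

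Some genes took opposite directions in CD34a6 against bulk and in the CD34+ against the CD34neg culture fraction. Tgfa, a ligand of the EGF receptor, was lower in CD34a6 (1.74 against 7.88 FPKM) and higher in the CD34+ fraction (22.3 against 12.6 FPKM). Cd109, a TGF-beta co-receptor, was at 42.5 against 119 FPKM in CD34a6 and bulk and at 16 against 8.6 in the fractions. Srgap1, a GTPase-activating protein of Slit and Robo signalling, was at 0.825 against 4.56 FPKM and 5.42 against 1.89. The levels come from tables made separately, and nothing about their cause was tested.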
